A study of Homo sapiens with 9 samples.

Results

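The 10 genes described here set the pace of the G1 phase of the cell cycle: the D-type cyclins CCND1 and CCND3, their kinases CDK4 and CDK6, the CIP/KIP inhibitors CDKN1A and CDKN1B, the INK4 inhibitors CDKN2A, CDKN2B and CDKN2C, and the retinoblastoma gene RB1. They were taken by symbol, and all 10 were among the 21619 genes of the count tables. RNA was measured in 9 xenograft tumours grown in mice from MDA-MB-231 cells, a line from a triple-negative breast cancer, here carrying the ribosomal protein L10a joined to EGFP. In 5 tumours the cancer cells had been injected into the mouse mammary fat pad together with mesenchymal stem cells (MSC) of human bone marrow, 1 for each cancer cell, and in 4 tumours they had been injected without MSC. All cancer cells carried the tag, each tumour came from its own mouse, and tumours were taken after 3 weeks. Lysates of whole tumours were passed over beads that carry an antibody to GFP, which retain tagged polysomes (translating ribosome affinity purification). The values are therefore levels of ribosome-bound RNA, in which less RNA and less ribosome association cannot be told apart, nor can fewer cells and less RNA per cell. The sources used here do not give the promoter of the tag, the mouse strain, or whether the tagged line was 1 clone.

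Cyclin D binds CDK4 or CDK6, and the active pair phosphorylates the RB1 protein, which then lets go of the E2F factors that switch on genes for DNA replication. INK4 proteins bind CDK4 and CDK6 and keep cyclin D off. CIP/KIP proteins inhibit CDK2 complexes. In MDA-MB-231 the CDKN2A locus is known to be homozygously deleted.

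The tables held 24616792 to 65275226 gene counts per tumour, and 13458 genes passed the filter on low counts and were tested. CPM below are counts per 1e6 gene counts, scaled between tumours by TMM. Log2 fold changes are with MSC over without MSC, with their SE, and p-values are from the quasi-likelihood test in edgeR, adjusted by Benjamini-Hochberg over all tested genes. The 6 genes typical of the line, led by VIM, MSN and CAV1, summed to 9856 to 15579 CPM with MSC and 9058 to 10331 CPM without MSC. Of these 6, 3 were called higher with MSC: CD44 (0.61 ± 0.13, edgeR adjusted p = 0.00865), EGFR (0.90 ± 0.17, adjusted p = 0.00498) and AXL (0.53 ± 0.12, adjusted p = 0.0137). VIM, MSN and CAV1 were not called. The luminal and receptor genes ESR1, PGR, FOXA1 and CDH1 averaged at most 0.0531 CPM in either group. The other 3 of the 7 luminal and receptor genes not expected in the line were detected: ERBB2 at 28.02 and 22.6 CPM, EPCAM at 10.6 and 10.1 CPM and GATA3 at 4.40 and 6.77 CPM with and without MSC, none of them called. The 15 fibroblast and MSC markers summed to 89.2 to 232 CPM in tumours with MSC and to 62.6 to 90.4 CPM in tumours without MSC. Tumour 15 with MSC stood apart at 232 CPM, against at most 120.1 CPM in any other tumour. COL6A3, COL1A1 and SPARC were the most abundant of these markers, and COL1A2 was the 1 tested marker of the list that rose (2.41 ± 0.51, edgeR adjusted p = 0.0104). Some other markers had most of their reads in tumour 15: DCN 662 of 679 and LUM 99 of 144, neither of which passed the filter. COL3A1, tested but not called (edgeR adjusted p = 0.200), had 744 of 1011 there. The 8 endothelial markers summed to 130.001 to 161.5 CPM in tumours with MSC and 92.6 to 111.1 CPM without MSC, nearly all of it ESAM, which rose (137.4 ± 12.1 CPM with MSC, 91.4 ± 10.9 CPM without MSC, edgeR adjusted p = 0.00483). PECAM1 fell (4.43 ± 0.95 CPM with MSC, 8.50 ± 1.21 CPM without MSC, edgeR adjusted p = 0.00745), KDR had 1.02 and 1.33 CPM with and without MSC (edgeR adjusted p = 0.588), and CDH5, VWF, TEK, CLDN5 and EMCN averaged at most 0.271 CPM in either group. The 8 leukocyte markers summed to 138.2 to 208.7 CPM with MSC and 94.4 to 138.1 CPM without MSC, nearly all of it CD68, which rose (159.1 ± 32.9 CPM with MSC, 110.7 ± 21.8 CPM without MSC, edgeR adjusted p = 0.0371). CSF1R had 4.48 CPM with MSC and 4.42 CPM without MSC. PTPRC, which did not pass the filter, had 0.956 ± 1.48 CPM with MSC and 0.0821 ± 0.0986 CPM without MSC. Tumour 1 with MSC held 136 of its 199 reads, at 3.58 CPM, against at most 0.543 CPM in any other tumour. The 6 adipocyte markers summed to at most 5.17 CPM in any tumour, and LEP was at 0 in all. The 6 smooth muscle and pericyte markers summed to 8.54 to 12.5 CPM with MSC and 5.25 to 9.87 CPM without MSC. The part of these markers in the results below was not tested. Values without tumour 15, given for some genes, leave out 1 tumour that also differs in its TMM factor, so they do not test that part.

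Members of a family are related in sequence, which bears on how their reads can be counted. In transcripts of GENCODE 29 (GRCh38), 31 of the 1169 stretches of 50 bases in CDKN2A also occur in CDKN2B, and 31 of the 3862 in CDKN2B also occur in CDKN2A. Their longest shared run is 80 bases. A read that lies wholly within a shared run could not be assigned to one of them by its own sequence. The third INK4 gene, CDKN2C on chromosome 1, shares no run longer than 12 bases with either. The cyclins CCND1 and CCND3 share at most 20 bases in a row, and CDK4 and CDK6 at most 16.

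No member was called higher or lower with MSC. Of the 8 members that passed the filter, 0 were called higher and 0 lower in edgeR, while 4.18% of all tested genes were called higher and 3.60% lower, 7.78% in all. At an unadjusted p under 0.05, 0 of the 8 passed, and DESeq2 and limma-voom also called 0. Their adjusted p ran from 0.313 to 0.742. The log2 changes were small, from -0.18 to 0.13, with a median of -0.12 against 0.01 over all tested genes. 6 of the 8 were negative, against 6575 of 13458 tested genes. The 2 members that did not pass the filter were CDKN2A and CDKN2B, which had almost no reads.

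**Figure D1:**
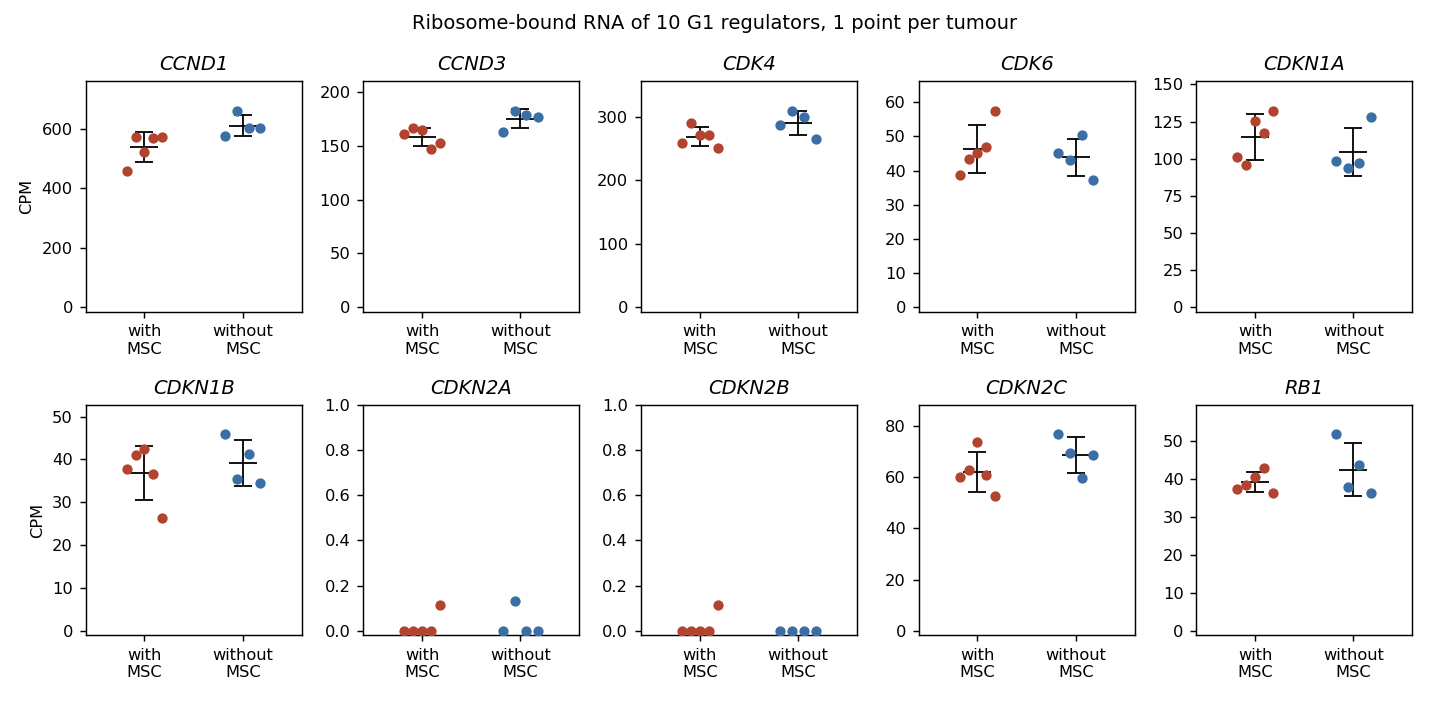
CPM of each of the 10 genes in each tumour, with MSC (red, n = 5) left and without MSC (blue, n = 4) right; black bars are mean ± SD for the 8 tested genes. After TMM scaling, the ranges of the groups overlap for every gene except CCND1, and CDKN2A and CDKN2B lie at or near 0.

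CCND1, cyclin D1, had the largest of these changes. It had 457.1, 571.6, 523.1, 568.6 and 572.6 CPM in tumours 1, 6, 7, 10 and 15 with MSC. In tumours 9, 11, 12 and 13 without MSC it had 576.3, 661.2, 604.1 and 601.9 CPM. On this scale every tumour with MSC was below every tumour without MSC, and tumour 1 was the lowest of all. The separation depends on the TMM factor of tumour 15, which was 1.14, against 0.937 to 1.04 in the other tumours. By gene counts alone, without TMM, tumour 15 (20052 of 30860230) lay above every tumour without MSC. After TMM scaling, CCND1 was the 1 tested member whose groups did not overlap, which was also true of 1346 of all 13458 tested genes, 10%. Its log2 change was -0.18 ± 0.11 (edgeR adjusted p = 0.313), a fold of 0.882 with a 95% interval of 0.754 to 1.03.

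CCND3, cyclin D3, differed by about as little. It had 161.001, 166.7, 164.5, 146.7 and 152.4 CPM with MSC, and 162.9, 182.8, 178.3 and 177.2 CPM without MSC. The groups overlapped through tumour 9 alone, the lowest without MSC. The log2 change was -0.15 ± 0.09 (edgeR adjusted p = 0.348), a fold of 0.903 with a 95% interval of 0.788 to 1.03. A correction for GC content and transcript length moved it to -0.25, with an edgeR adjusted p of 0.0521, against 0.269 to 0.594 under the other alternatives. CCND2, the remaining D-type cyclin, was scarce in both groups, at 1.78 ± 0.61 CPM with MSC and 2.22 ± 0.44 CPM without MSC (SD, n = 5 and 4).

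CDK4 was the more abundant of the kinases that D cyclins activate. It had 259.4, 290.6, 271.6, 270.9 and 250.2 CPM with MSC, against 287.1, 310.04, 299.3 and 265.5 CPM without MSC. The ranges overlapped, with tumour 15 lowest and tumour 11 highest. The log2 change was -0.11 ± 0.10 (edgeR adjusted p = 0.506), a fold of 0.924 with a 95% interval of 0.803 to 1.06. Of the exonic bases annotated for CDK4 in GENCODE 29, 43.2% also lie in exons of TSPAN31, and no source used here says whether strand was used in counting. If it was not, CDK4 and TSPAN31 reads from there cannot be told apart, and where such reads were set aside, the level of CDK4 and its rank and ratios are too low.

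CDK6 was lower in level and more spread. It had 38.8, 43.4, 45.1, 46.8 and 57.6 CPM with MSC, and 45.01, 43.1, 50.4 and 37.3 CPM without MSC. The highest value was in tumour 15 and the lowest in tumour 13, so the ranges overlapped widely. The log2 change was 0.08 ± 0.12 (edgeR adjusted p = 0.742), and it was -0.02 without tumour 15. The 95% interval of the fold was 0.883 to 1.26.

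CDKN1A, which encodes p21, had the largest positive difference among the members. It had 101.4, 96.1, 125.5, 117.4 and 132.4 CPM with MSC, against 98.2, 94.02, 97.3 and 128.3 CPM without MSC. Tumour 13 was high among those without MSC and fell inside the range with MSC. The log2 change was 0.13 ± 0.12 (edgeR adjusted p = 0.524), a fold of 1.10 with a 95% interval of 0.923 to 1.30. Without tumour 13 the log2 change was 0.25, with an edgeR adjusted p of 0.170.

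CDKN1B, which encodes p27, varied most in tumour 15. It had 37.7, 41.1, 42.4, 36.6 and 26.4 CPM with MSC, and 45.9, 35.4, 41.2 and 34.4 CPM without MSC. Without tumour 15, the lowest of the 9, the ranges still overlapped and the log2 change of -0.09 ± 0.14 (edgeR adjusted p = 0.721) became 0.0049. The 95% interval of the fold over all tumours was 0.773 to 1.14.

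RB1 had 37.2, 38.3, 40.6, 42.9 and 36.2 CPM with MSC, against 51.7, 37.9, 43.6 and 36.3 CPM without MSC. Tumour 9 was the highest and the remaining tumours lay close together in both groups. The log2 change was -0.12 ± 0.12 (edgeR adjusted p = 0.575), and -0.0065 without tumour 9. The 95% interval of the fold was 0.777 to 1.09.

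**Figure D2:**
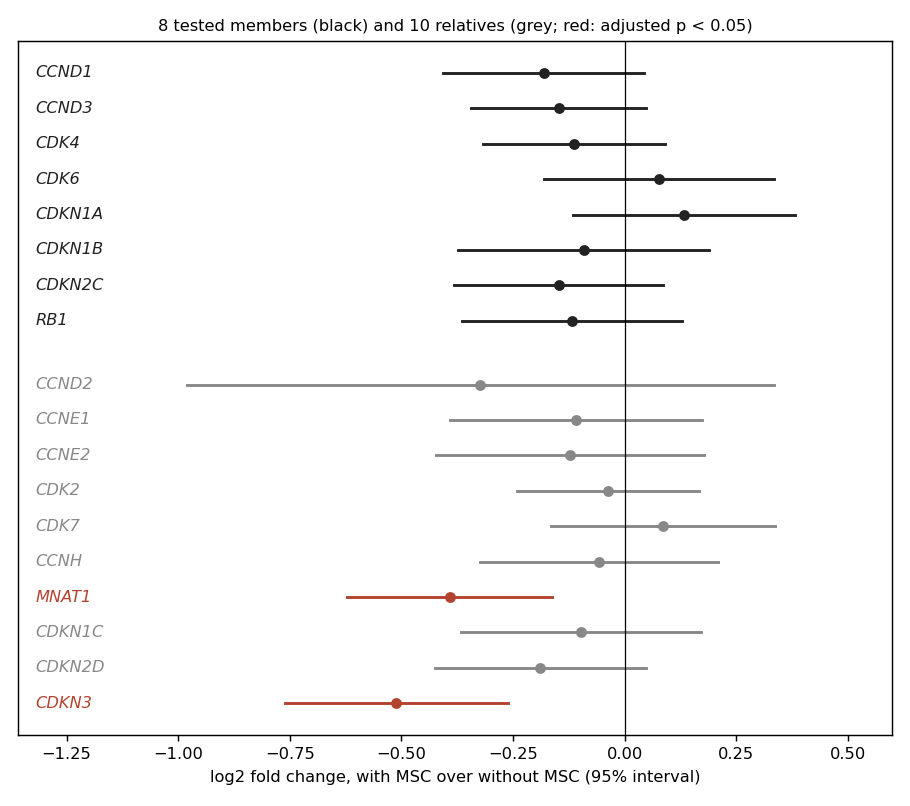
Log2 fold change, with MSC over without MSC, with its 95% interval. Shown are the 8 tested members (black) and 10 genes listed as their relatives (grey, or red where the edgeR adjusted p was under 0.05). The intervals of all 8 members include 0, from CCND1 at -0.18 to CDKN1A at 0.13, while those of MNAT1 and CDKN3 do not.

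The INK4 genes fell into an abundant and an absent pair. CDKN2C, which encodes p18, had 60.01, 62.7, 73.9, 61.03 and 52.5 CPM in tumours with MSC. In tumours without MSC it had 76.8, 69.7, 59.7 and 68.6 CPM. The groups overlapped, with a log2 change of -0.15 ± 0.11 (edgeR adjusted p = 0.442) and a 95% interval of the fold of 0.767 to 1.06. The fourth INK4 gene, CDKN2D, which encodes p19, had 122.1 ± 15.4 CPM with MSC and 139.3 ± 16.8 CPM without MSC (SD, n = 5 and 4), a log2 change of -0.19 ± 0.11 (edgeR adjusted p = 0.317).

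CDKN2A, which encodes p16 and, in another reading frame, ARF, had 4 reads in tumour 15 with MSC and 0 in the other 4 tumours with MSC. Among tumours without MSC it had 4 reads in tumour 11 and 0 in the other 3. CDKN2B, which encodes p15, had 4 reads in tumour 15 and 0 in every other tumour of either group. The reads of CDKN2A sum to 8 over the 9 tumours, against 23706 for CDKN2C. A count of 0 allows up to 0.0456 CPM in the deepest and 0.124 CPM in the shallowest library, taking 3 counts per library as the limit. The 4 CDKN2A reads correspond to a share of gene counts of 0.130 CPM in tumour 15 (exact 95% binomial interval 0.0353 to 0.332) and 0.127 in tumour 11 (0.0345 to 0.324), for counting error only. At this depth no difference between the groups was detectable for either gene, and none was tested.

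The genes around them on the short arm of chromosome 9 were near 0 as well. Of the 15 genes looked at along this region, which are not all the genes there, 10 in a row, from PTPLAD2 to ELAVL2 and including both INK4 genes, had 0 to 24 reads per tumour when added up. 4 of these 10 had no read in any tumour: IFNB1 and IFNE, which encode interferons, DMRTA1, and the antisense transcript CDKN2B-AS. MTAP, a methylthioadenosine phosphorylase of the methionine salvage pathway that most cells express, had 3 reads in tumour 15 with MSC, 20 in tumour 9 without MSC and 0 in the other 7. KLHL9, an adaptor of a ubiquitin ligase, had 5 reads in all with MSC and 4 without MSC. PTPLAD2 had 1 read and the neuronal gene ELAVL2 had 4 reads, all of them in tumours with MSC. This block was delimited after its counts were seen, and some of its genes are silent in many tissues.

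Reads of the block were unevenly spread over tumours. They numbered 0, 1, 0, 3 and 17 in tumours 1, 6, 7, 10 and 15 with MSC, and 24, 4, 0 and 0 in tumours 9, 11, 12 and 13 without MSC. Tumours 15, 9 and 11 thus held 45 of the 49 reads. Tumour 15 had reads in 5 of the 10 genes, more than any other, and it also had the highest sum of fibroblast and MSC markers. Tumour 9, without MSC, had the lowest such sum and the deepest library, and 20 of its 24 reads were of MTAP. The source of these reads was not tested.

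Outside the block, the flanking genes were expressed. KIAA1797 (now FOCAD), which borders it at chr9:20658309-20995955 (GRCh38), was low at 1.09 ± 0.46 CPM with MSC and 1.26 ± 0.37 CPM without MSC. MLLT3, a transcription elongation factor further out on that side, had 13.2 ± 2.04 and 13.03 ± 2.52 CPM with and without MSC. On the other side TUSC1 had 30.6, 28.5, 25.1, 28.0 and 29.7 CPM with MSC and 34.6, 39.98, 44.2 and 34.1 CPM without MSC. It was the 1 gene of the region that changed, falling by 0.43 ± 0.12 on the log2 scale (edgeR adjusted p = 0.0296). The call of TUSC1 was lost without tumours 1, 6, 7, 10, 11 or 12 (edgeR adjusted p = 0.0514 to 0.117) and with library size only (0.0557). PLAA, an activator of phospholipase A2, had 44.7 ± 4.34 CPM with MSC and 55.8 ± 6.94 CPM without MSC (edgeR adjusted p = 0.0816), and IFT74, of intraflagellar transport, 12.8 ± 2.11 and 15.4 ± 2.01 CPM (0.266).

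**Figure D3:**
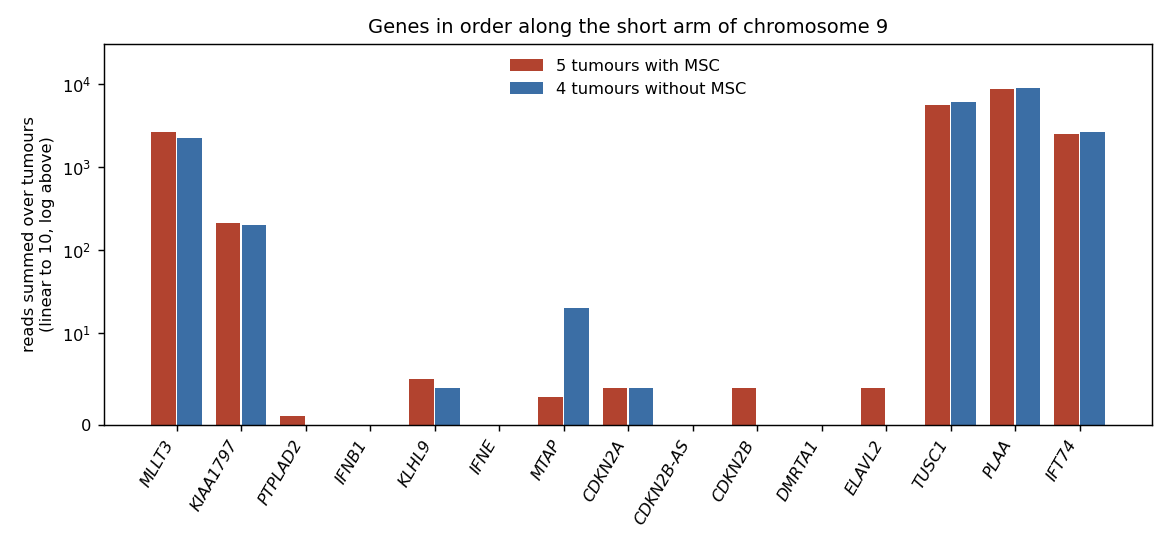
Reads summed over the 5 tumours with MSC (red) and the 4 tumours without MSC (blue) for 15 genes in their order on chromosome 9, on an axis that is linear to 10 and logarithmic above. From PTPLAD2 to ELAVL2 no bar exceeds 20 reads, while the flanking genes have 198 to 8958.

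Per kilobase of transcript, the members spanned a wide range of levels. CDK4 and CCND1 were the highest, at 129 ± 7.31 and 125 ± 11.6 RPKM (CPM per kilobase) with MSC and 140 ± 9.21 and 142 ± 8.33 RPKM without MSC (SD, n = 5 and 4), and their ranges overlapped. CCND3 followed at 70.9 ± 3.78 RPKM with MSC and 78.5 ± 3.86 RPKM without MSC. CDKN1A had 50.5 ± 6.84 and 46.1 ± 7.05 RPKM, and CDKN2C 29.7 ± 3.70 and 32.9 ± 3.36 RPKM, with and without MSC. CDKN1B (13.9 ± 2.36 and 14.8 ± 2.01 RPKM) and RB1 (8.14 ± 0.56 and 8.84 ± 1.45 RPKM) were lower, and their ranges overlapped. CDK6 was the lowest of the tested members, at 3.99 ± 0.60 RPKM with MSC and 3.78 ± 0.47 RPKM without MSC for its transcript of 11612 bases. The tumours' ranges did not overlap between the other neighbours in this order. With the union of all annotated exons as length, CCND1 stood above CDK4 and CDKN1A above CCND3. That length lowered some levels by over 1.5 times: CCND3 to 27.3 RPKM with MSC and 30.2 RPKM without MSC, CDK4 to 84.8 and 91.7 RPKM, and CDKN2C to 18.7 and 20.7 RPKM.

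The proportions of partners overlapped between the groups and were not tested. For each CCND3 read there were 2.84 to 3.87 CCND1 reads with MSC (median 3.43) and 3.39 to 3.62 without MSC (median 3.47). For each CDK6 read there were 4.34 to 6.70 CDK4 reads with MSC (median 6.02) and 5.94 to 7.20 without MSC (median 6.75). For each CDKN1B read there were 2.34 to 5.01 CDKN1A reads with MSC (median 2.96) and 2.14 to 3.72 without MSC (median 2.51). The extreme value with MSC was that of tumour 15 for the kinases and for the CIP/KIP genes. These ratios are not corrected for length, and those of CDK4 carry the limit on its counts given above.

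Tumour 15 was the highest or the lowest of the 9 for 6 of the 8 tested members. It was highest for CDK6 and CDKN1A and lowest for CDK4, CDKN1B, CDKN2C and RB1. These ranks depend in part on its TMM factor, the largest of the 9 at 1.14. By gene counts alone, without TMM, tumour 15 was not the lowest for CDK4, CDKN2C or RB1, and it was the highest for CCND1. Over all tested genes tumour 15 was extreme in 28.6%, after TMM. Tumour 12, which was extreme in 45.1% of all tested genes, was so for 0 of the 8. Tumour 9 was highest for CDKN1B, CDKN2C and RB1, and tumour 11 for CCND1, CCND3 and CDK4.

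**Figure D4:**
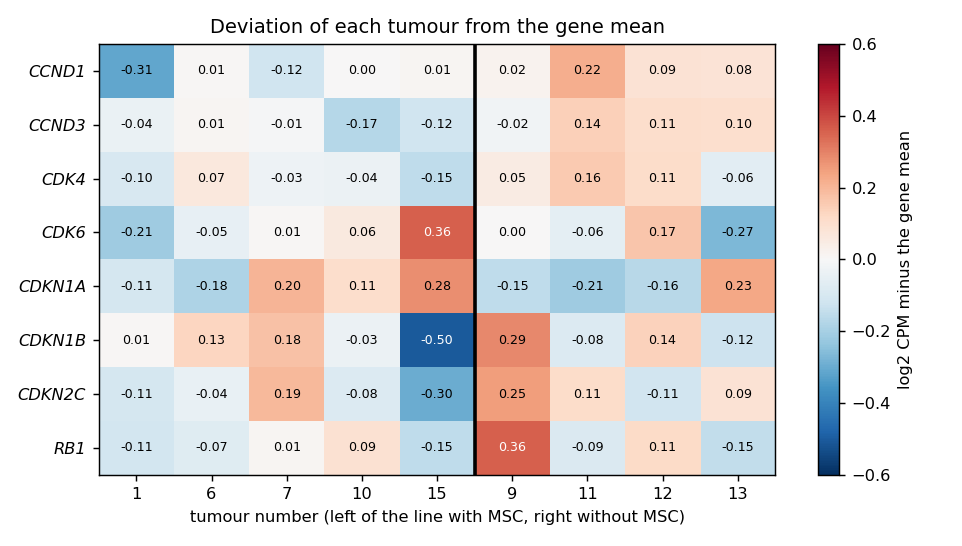
Log2 CPM of the 8 tested members minus each gene's mean over the 9 tumours, one column per tumour, with MSC left of the line and without MSC right of it. The largest deviations are in tumour 15, -0.50 for CDKN1B and 0.36 for CDK6, and in tumour 9, 0.36 for RB1.

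The tested genes whose pattern over the 9 tumours lay nearest to that of CCND1 were RBM6, MYEOV, TMEM55B and UBAP2L. Likeness was the root mean square difference of log2 CPM after centring each gene, over the 10785 tested genes that averaged 100 counts or more. It was 0.06 for RBM6 and 0.07 for the other 3, against a median of 0.25. MYEOV lies 347 kb from CCND1 on chromosome 11, by their start positions in GENCODE 29. For CCND3 the nearest were TRIM27, C17orf81, PSMB8 and OSGEP, at 0.04 to 0.05 against a median of 0.23. None of these 8 genes was called in edgeR (adjusted p = 0.150 to 0.498).

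Among 10 tested genes listed as relatives of the members, 2 fell and 0 rose, with a median log2 change of -0.12. Neither of the 2, CDKN3 and MNAT1, is a cyclin, a CDK or an INK4 or CIP/KIP inhibitor. The listed genes of those kinds were not called. Of all tested genes, 3.60% were called lower and 4.18% higher. CDKN3, a phosphatase that removes an activating phosphate from CDKs, had 115.1 ± 16.8 CPM with MSC and 164.1 ± 23.3 CPM without MSC (-0.51 ± 0.12, edgeR adjusted p = 0.0156). MNAT1, the assembly factor of the CDK-activating kinase, had 61.97 ± 7.46 CPM with MSC and 81.4 ± 7.68 CPM without MSC (-0.39 ± 0.11, edgeR adjusted p = 0.0356). Its partners CDK7 (0.09 ± 0.12) and CCNH (-0.06 ± 0.13) were not called, nor were the E cyclins CCNE1 (-0.11 ± 0.14) and CCNE2 (-0.12 ± 0.14), CDK2 (-0.04 ± 0.10) and the third CIP/KIP gene CDKN1C (-0.10 ± 0.13). The call of CDKN3 was lost without tumours 9 or 12 (edgeR adjusted p = 0.0650 and 0.0648). That of MNAT1 was lost without tumours 6, 10, 15, 9, 11 or 12 (0.0540 to 0.138), with limma-voom and after the correction for GC content and length (0.0506 and 0.122).

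Of the pocket proteins, E2F factors and subunits of the DREAM complex, which act with RB1, 0 of 18 tested genes were called in either direction in edgeR, and 1 of 18 had an unadjusted p under 0.05. Of all tested genes, 7.78% were called in edgeR. DESeq2 and limma-voom also called 0. The median log2 change was 0.0053, and its sign was not kept under the alternatives, which gave -0.063 to 0.11. The smallest p-values were of E2F4 (0.32 ± 0.14, edgeR adjusted p = 0.147), E2F7 (0.23 ± 0.11, adjusted p = 0.212), the RB1 relative RBL1 (0.51 ± 0.28, adjusted p = 0.264) and LIN9 (-0.27 ± 0.15, adjusted p = 0.296). E2F1, the first described E2F, had 96.96 ± 7.49 CPM with MSC and 105.9 ± 12.4 CPM without MSC.

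Some genes of S phase and of mitosis were lower with MSC. Over all tested genes, 4.18% were called higher and 3.60% lower. Of E2F targets of S phase entry, 5 of 28 fell and 0 rose (median -0.23). They were CCNA2, the cyclin of S phase (-0.56 ± 0.12, edgeR adjusted p = 0.00865), the ribonucleotide reductase subunit RRM1 (-0.53 ± 0.13), the replication clamp PCNA (-0.44 ± 0.12) and the helicase subunits MCM6 (-0.45 ± 0.12) and MCM4 (-0.35 ± 0.11). In this list 23 log2 changes were negative and 5 positive. The positive ones, not called, included TYMS (0.68 ± 0.25, edgeR adjusted p = 0.112) and TK1 (0.32 ± 0.11, adjusted p = 0.0912). Of the G2 and mitosis genes, 9 of 20 fell and 0 rose (median -0.36): KIF20A, CENPA, BUB1, AURKA, CDK1, NUSAP1, KIF11, TTK and BUB1B. Over 20 alternatives KIF20A kept its call in all. BUB1B, just under the threshold (edgeR adjusted p = 0.04998), lost its call in 15 and TTK in 9, and the others in 2 to 5. CDK1, the mitotic kinase, had 138.6 ± 17.9 CPM with MSC and 189.9 ± 21.3 CPM without MSC (-0.45 ± 0.11, edgeR adjusted p = 0.0208). CDK1 lost its call without tumours 10, 9 or 12 (edgeR adjusted p = 0.0612 to 0.0907), without tumours 15 and 12 together (0.125), and after the GC and length correction (-0.27, 0.0676). With that correction, 2 E2F targets and 5 mitosis genes were called lower. Of the 5 E2F targets named above, only CCNA2 kept its call (edgeR adjusted p = 0.0173). MCM4, RRM1, MCM6 and PCNA lost theirs (0.0505 to 0.0999), so the other E2F target called there is none of the 5. Whether the change of the S phase and mitosis genes differs from that of the G1 members was not tested. The E2F target count was 1 without tumours 1, 10, 11 or 12, 2 without tumour 9, 3 without tumour 15, 8 without tumour 13 (where 1 rose) and 0 without tumours 15 and 12 together. The mitosis count was 6 without tumour 1, 3 without tumour 10, 1 without tumour 9, 2 without tumour 12 and 1 without tumours 15 and 12 together.

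**Figure D5:**
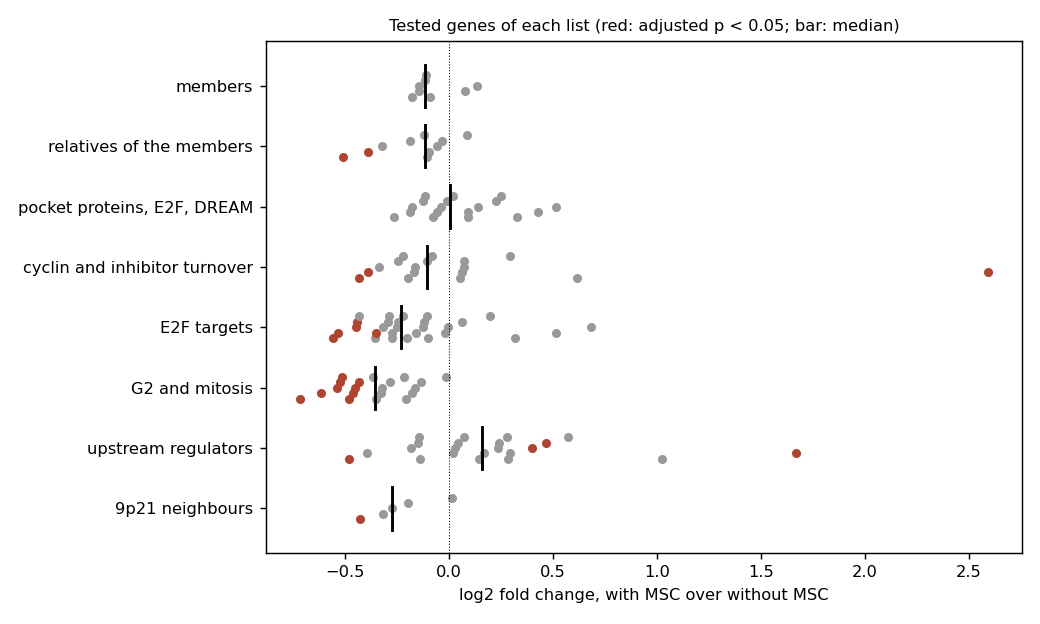
Log2 fold change, with MSC over without MSC, of each tested gene of the members and of 7 lists, red where the edgeR adjusted p was under 0.05, with the list's median as a bar. The members lie between -0.18 and 0.13 and none is red, while 9 of 20 G2 and mitosis genes are.

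Of the genes that control turnover of cyclins and inhibitors, 1 of 17 tested genes rose and 2 fell (median -0.11). The shares over all tested genes were 4.18% higher and 3.60% lower. RBX1, the RING subunit of cullin ubiquitin ligases, had 174.7 ± 24.4 CPM with MSC and 236.4 ± 20.1 CPM without MSC (-0.44 ± 0.11, edgeR adjusted p = 0.0242). SKP1, the adaptor of the SCF ligase that carries F-box proteins, had 423.6 ± 47.4 CPM with MSC and 554.8 ± 44.99 CPM without MSC (-0.39 ± 0.11, edgeR adjusted p = 0.0378). CRYAB, a small heat shock protein that assists the F-box protein FBXO4 on cyclin D1, rose by 2.59 ± 0.46. Its levels were low, at 3.17 ± 2.10 CPM with MSC and 0.518 ± 0.114 CPM without MSC. It had 37 to 225 reads per tumour with MSC and 11 to 31 without MSC. DCAF1, listed as VPRBP, had the next smallest p (0.61 ± 0.27, edgeR adjusted p = 0.161). RBX1 lost its call without tumours 10, 9 or 12 (edgeR adjusted p = 0.0620 to 0.106), SKP1 without tumours 1, 10, 15, 9, 11 or 12 (0.0508 to 0.145), with limma-voom and after the GC and length correction (0.0612 and 0.0716), and CRYAB only with limma-voom (0.0864), among the alternatives that tested it.

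Of the regulators that act on the CCND1 gene and on CIP/KIP inhibitors, 3 of 22 tested genes rose and 1 fell (median 0.16). The shares over all tested genes were 4.18% higher and 3.60% lower. MYC, which can repress CDKN1A and CDKN2B, had 179.1 ± 21.7 CPM with MSC and 129.7 ± 6.60 CPM without MSC (0.47 ± 0.11, edgeR adjusted p = 0.0132). CTNNB1, beta-catenin, had 228.8 ± 25.8 CPM with MSC and 320.1 ± 56.8 CPM without MSC (-0.48 ± 0.12, edgeR adjusted p = 0.0218). KLF4, a transcription factor that can raise CDKN1A, rose by 0.40 ± 0.12 (edgeR adjusted p = 0.0431). ID2, which binds RB1, rose by 1.67 ± 0.51, just under the threshold (edgeR adjusted p = 0.04998). Its levels were low, at 2.47 ± 1.02 CPM with MSC against 0.748 ± 0.579 CPM without MSC. MYC lost its call without tumour 12 alone (edgeR adjusted p = 0.0658), and CTNNB1 without tumours 1, 7, 10, 11 or 12 (0.0548 to 0.103). KLF4 lost it in 7 and ID2 in 8 of the 9 fits without 1 tumour (edgeR adjusted p up to 0.171 and 0.133), which for KLF4 were those without tumours 6, 7, 10, 15, 9, 11 and 12 and for ID2 all but the one without tumour 13. Over all alternatives that tested them, KLF4 lost its call in 11 of 20 and ID2 in 15 of 19.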

How the data were processed

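Per the labels' protocols, libraries were made with a TruSeq kit from polysome-associated RNA of whole tumours. The deposited values are raw whole-number counts, one per gene symbol and tumour. TopHat 1.4.0, CASAVA 1.8.1, HTSeq and hg19 are named in the submitters' processing notes. The sources used here do not give the annotation, the HTSeq settings, the use of strand or any removal of mouse reads. Lines for reads assigned to no gene (10.2 to 12.1% of all counts) were left out. Libraries of a group differed by more than sampling noise (smallest chi-square per degree of freedom 23.9).

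Counts were tested with edgeR 4.0.16 in R 4.3.3 (filterByExpr, TMM, glmQLFit with robust=TRUE), all 9 tumours in one fit with no covariate, and a threshold of 0.05 on p-values adjusted by Benjamini-Hochberg over 13458 genes. SE is the log2 change over the square root of F. Intervals use the fit's degrees of freedom. The script was tested on simulated data. DESeq2 1.42.0 and limma 3.58.1 were alternatives. Lengths, GC content (95.7% of tested genes) and shared stretches came from GENCODE 29 by symbol, using the longest transcript matched to RefSeq; the files themselves give no coordinates.

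The members and lists were chosen with earlier results of these data known. Named genes were all members, the called genes and the 4 of smallest p in each list, the 9p21 genes, the nearest patterns and the leading markers. TSPAN31 and other named genes of these lists were picked with their values in view. Some items, among them 1 gene list and family sequences, are not reported here.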

Additional observations from a re-analysis of the deposited data

Results flagged for a closer look

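CDKN1A in tumour 13 without MSC stood apart from its group: it had 128.3 CPM, while the other 3 tumours without MSC had 94.02 to 98.2 CPM. The gap to the nearest tumour was 0.878 of the group's range. Of the 16 groups of tumours examined in this way, 8 members in either condition, this was the 1 that stood out, and chance alone marks about 1 in 20.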

How the results depend on the processing

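No paired analysis was possible because the groups share no replicate numbers. The 8 tested members had 160 fits under 20 alternatives, and 0 of these passed the threshold; at an unadjusted p under 0.05, 2 members passed after the GC correction and 1 without tumour 13. The direction was kept in 157 and turned in 3: leaving out tumour 15 gave -0.015 for CDK6 and 0.0049 for CDKN1B, and leaving out 15 and 12 gave 0.028 for CDKN1B. Over single tumours left out, CDK6 ran from -0.015 to 0.14 and CDKN1B from -0.15 to 0.0049. That pair of tumours, the correction for GC content and length and the union exon length were chosen after seeing the data. Over all genes, 563 were higher and 484 lower. The counts were 856 and 790 with DESeq2, 956 and 888 at an adjusted p under 0.10, and 201 and 101 without tumours 15 and 12; limma-voom gave 289 lower. Leaving out single tumours gave 151 to 985 higher and 94 to 863 lower, the lowest without tumour 12 and the highest without tumour 13.

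Relatives had 1 lower gene with limma-voom and the GC correction, 0 without tumours 15 and 12, and 0 to 2 without single tumours. The turnover list had 0 higher at 5 CPM or with limma-voom, 1 lower with limma-voom and the GC correction, 0 lower without tumours 15 and 12, and 0 to 2 lower and a median of -0.19 to -0.052 without single tumours. E2F targets had 1 higher with limma-voom and at 0.10, 10 lower with DESeq2, 11 at 0.10, 2 with the GC correction and 0 without tumours 15 and 12; single tumours gave 0 to 1 higher and 1 to 8 lower. Mitosis genes had 5 lower with the GC correction, 1 without tumours 15 and 12, and 1 to 11 without single tumours. Upstream regulators had 1 higher with library size only, limma-voom and without tumours 15 and 12 (median 0.085), and 0 to 3 higher and 0 to 1 lower without single tumours. The 9p21 list had 0 lower with library size only and without tumours 15 and 12, 2 at 0.10 and 0 to 2 without single tumours. The causes were not tested. Levels per length cannot be given without a length, so that alternative has no value.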

Other observations

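TSPAN31, a tetraspanin gene whose exons overlap those of CDK4, had 16.6, 12.7, 12.8, 15.6 and 14.6 CPM in tumours with MSC and 9.61, 7.68, 7.36 and 12.99 CPM in tumours without MSC. It rose by 0.61 ± 0.17 on the log2 scale (edgeR adjusted p = 0.0342), while CDK4 had a log2 change of -0.11. The call of TSPAN31 was lost without tumours 1, 10, 15, 9, 11 or 12 (edgeR adjusted p = 0.0572 to 0.115), with library size only and without tumours 15 and 12 together. How reads of the overlap were assigned was not tested.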
